A study of Mus musculus with 3 samples.

Results

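Glucose is taken up and broken down to pyruvate by the enzymes of glycolysis, and pyruvate is either reduced to lactate or carried into the mitochondrion and oxidised in the tricarboxylic acid (TCA) cycle. A side branch, the pentose phosphate pathway, makes NADPH and ribose from glucose 6-phosphate. Described here are 42 mouse genes of these pathways in regulatory T cells, of 55536 mouse genes in the main gene table. They were chosen by name, as the glucose and lactate transporters, the enzymes of each step with their isozymes, and the subunits of the mitochondrial complexes, and no measured value entered the choice. They comprise 20 genes of glycolysis and transport, 18 genes of pyruvate entry and the TCA cycle, and 4 genes of the pentose phosphate pathway. Each symbol was matched to its gene identifier through the second transcript table, and Aldoa, which had 2 identifiers, was read at the higher of them. The other Aldoa identifier held 0.22, 0.26 and 0 TPM in libraries 1, 2 and 3. TPM gives a gene's share of all transcript molecules, corrected for transcript length, so that levels of different genes can be compared.

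Many of these steps can be run by more than 1 gene product. Isozymes differ in tissue, compartment and regulation: hexokinase 1 is the housekeeping form and hexokinase 2 an inducible form, and lactate dehydrogenase is a tetramer of A and B chains in any mixture. Regulatory T cells hold immune responses in check and depend on the transcription factor Foxp3. They are known for relying on mitochondrial oxidation more than conventional effector T cells do, while glycolysis is used more when they proliferate. No conventional T cells were sequenced here, so the values below describe levels and isozyme use within regulatory T cells only.

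The RNA-seq libraries were made from polyadenylated RNA of regulatory T cells. The animal was a male adult of 4 months from a cross of Foxp3CreERT2 with Rosa26YFP. Foxp3CreERT2 places a tamoxifen-dependent Cre recombinase under the control of Foxp3, and Rosa26YFP is a fluorescent reporter switched on by Cre. The labels trace the cells to bone marrow hematopoietic cells, and how they were sorted or whether tamoxifen was given is not stated in the sources used here. All 3 libraries belong to biological replicate 1 and carry technical replicate numbers 1, 2 and 3, so there is 1 group, no comparison between conditions, and every SD and p-value below measures only the spread between libraries labelled technical replicates. They held 9299054, 9188612 and 8284381 expected counts in genes (counts that the quantifier assigned to genes, shared reads in parts). The 6 markers of regulatory T cells were all detected, Foxp3 among them, with a summed level of 2706, 2821 and 2715 TPM. The sum hides shifts in single markers. By scaled counts all 6 passed the chi-square test described below, 4 highest and 2 lowest in library 1. Those 2 were Foxp3 (27.6 TPM in library 1, 43.7 in library 2, 47.1 in library 3) and Il2ra (211, 332 and 369 TPM). Among the other 4, Tnfrsf18 stood at 761, 650 and 655 TPM. The libraries differed in markers of other cells: the summed level of 8 erythroid genes was 1688, 9.13 and 1500 TPM, that of 6 plasma cell genes 2011, 231 and 1413 TPM, that of 7 B cell genes 3656, 2805 and 3490 TPM, and that of 8 neutrophil genes 48.3, 0.6 and 4.09 TPM. With these differences, and no label that says so, it is not known whether the libraries came from the same RNA, so the spread may hold more than library preparation and sequencing. Fewer cells of a type and less RNA per cell cannot be told apart in such bulk samples.

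Pyruvate kinase M, which makes pyruvate in the last step of glycolysis, opens the account because its gene makes either of 2 enzymes by a choice between neighbouring exons of equal length. Transcripts with exon 9 encode the M1 form, typical of muscle and brain, and transcripts with exon 10 encode the M2 form, typical of proliferating cells. The exons lie on the plus strand of mm10 at chr9:59675029-59675195 for exon 9 and chr9:59675568-59675734 for exon 10, and both are coding. They are 167 bases long and differ at 64 of these bases, an identity of 61.7%, so reads that cross either exon tell the forms apart. The sequences below are shown because the share of each form rests on them, 5′ to 3′ from the GENCODE M21 transcripts, with capitals at the bases that differ from the other exon.
Pkm exon 9 (M1): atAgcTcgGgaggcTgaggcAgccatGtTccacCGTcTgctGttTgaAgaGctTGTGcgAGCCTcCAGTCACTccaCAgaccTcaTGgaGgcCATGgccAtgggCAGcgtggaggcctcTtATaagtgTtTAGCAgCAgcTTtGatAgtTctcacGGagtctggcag
Pkm exon 10 (M2): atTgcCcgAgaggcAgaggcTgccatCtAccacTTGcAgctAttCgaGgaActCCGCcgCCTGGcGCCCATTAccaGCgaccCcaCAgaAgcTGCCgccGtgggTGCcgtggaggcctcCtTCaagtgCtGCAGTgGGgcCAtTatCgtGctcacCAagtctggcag
The M2 form prevailed in every library. Transcripts that hold exon 10 took 95.5%, 94.9% and 94.7% of the TPM of transcripts with either exon in libraries 1, 2 and 3, a mean of 95.02% ± 0.411 (SD, n = 3). By expected counts, 14564, 14342 and 12110 counts fell on transcripts with exon 10 and 550, 560 and 521 on those with exon 9. A second transcript table, which the authors made from the reads with a transcript index in place of an alignment, gave 92.8% ± 0.298. Both tables placed the M2 share between 92.6% and 95.5% in every library. Pkm-201 was the only transcript with exon 10 and took 94.3%, 92.5% and 92.3% of all Pkm TPM. Transcripts with exon 9 took 4.48%, 4.94% and 5.21%. Most of that was on Pkm-202, with 4.23%, 4.12% and 4.63%, and the rest on Pkm-203, which retains an intron.

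All 42 genes were detected, meaning that no library had less than 1 TPM, where 45.9% of the 22028 protein-coding genes were. Their levels spanned more than 2 orders of magnitude, with a median of 93.0 TPM against 19.8 TPM for detected protein-coding genes. Of the 42 genes, 34 lay above the median of detected protein-coding genes and 16 above its 90th percentile. Together they held 1.08%, 1.03% and 1.01% of all gene counts. The highest were Pkm (ENSMUSG00000032294.17, mm10 chromosome 9, 59656368 to 59679375) with 847, 999.6 and 936 TPM, the enolase gene Eno1 (chromosome 4, 150236721 to 150248879) with 853, 930.3 and 901 TPM, and the aldolase gene Aldoa (chromosome 7, 126795234 to 126800751) with 893, 881 and 790.1 TPM. Ranges over the libraries overlapped between neighbours among these 3 and for Aldoa and Ldha, so their order is not resolved. The lowest were the lactate and pyruvate transporter genes Slc16a3 (chromosome 11, 120948480 to 120960868) and Slc16a1 (chromosome 3, 104638668 to 104658462), and the hexokinase gene Hk2 (chromosome 6, 82725025 to 82774454). In the order of all 42 means, 10 of 41 neighbouring pairs had ranges that did not overlap. Among the high genes these pairs set Mdh2 at 593 ± 9.33 TPM below Ldha at 774 ± 18.6, and Gpi1 at 340 ± 35.9 TPM below Mdh2.

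**Figure D1:**
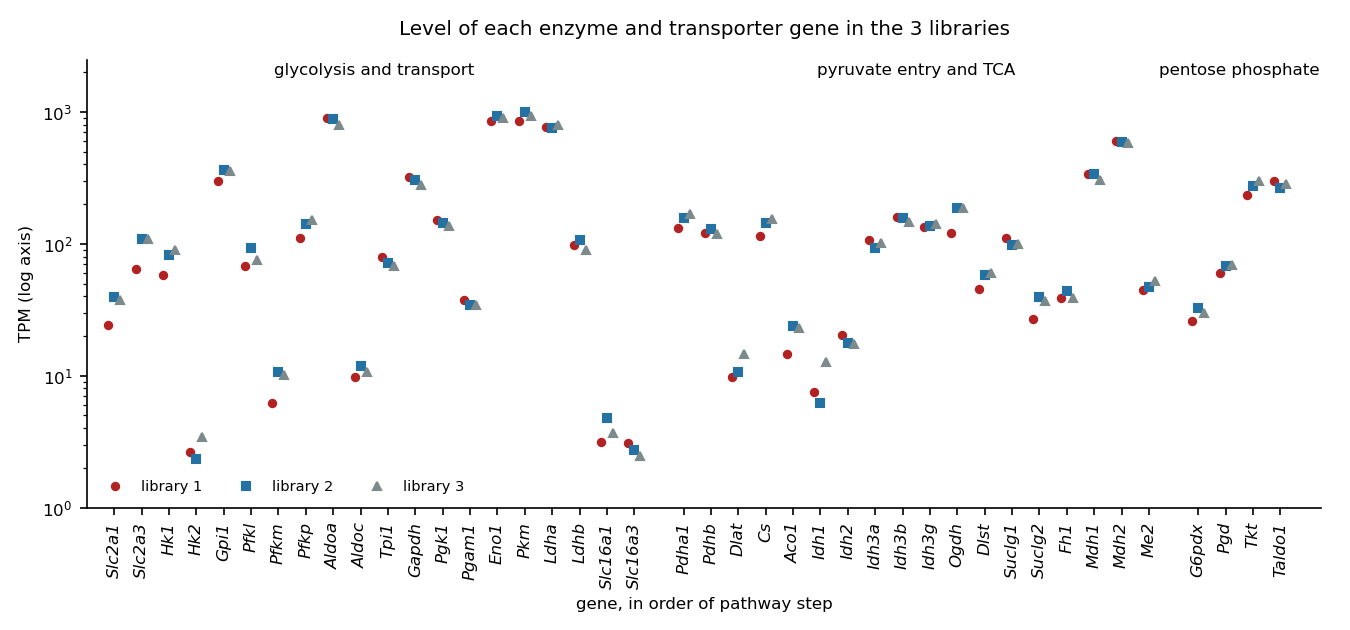
Level in TPM (log axis) of each of the 42 genes in libraries 1 (circles), 2 (squares) and 3 (triangles), in pathway order. All points lie above 1 TPM, the level used for detection, from about 2.75 TPM on average for Slc16a3 to 927 TPM for Pkm, and the entry steps Slc2a1, Slc2a3 and Hk1 are lowest in library 1.

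Glucose enters through the facilitative transporters Slc2a1 (GLUT1) and Slc2a3 (GLUT3, the high-affinity form). Slc2a3 had 64.7, 108.9 and 108.8 TPM and Slc2a1 had 24.2, 39.4 and 37.2 TPM. Slc2a3 was the higher gene in every library and took 73.6% ± 0.876 (SD, n = 3) of their sum. Both genes were lowest in library 1, while their ratio moved little, from 2.67 to 2.92. Of the other transporters on the list, Slc2a6, Slc2a8 and Slc2a9 were detected at 3.64 ± 0.704, 1.84 ± 0.699 and 6.09 ± 0.989 TPM, and the insulin-responsive Slc2a4 had 0.11, 0 and 0 TPM. Slc2a3 thus held the highest level of the 7 glucose transporter genes read.

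Hexokinase traps glucose as glucose 6-phosphate. Hk1 had 57.9, 81.7 and 89.95 TPM and Hk2 had 2.62, 2.34 and 3.41 TPM. Hk1 took 95.7%, 97.2% and 96.3% of the pair, and the Hk2 value rests on 44, 45 and 43 counts. With protein-coding transcripts alone Hk2 had 0.886, 1.13 and 1.12 TPM, under 1 TPM in library 1, and the Hk1 share was 98.6% ± 0.135 (SD, n = 3). The third hexokinase, Hk3, had 0.85, 1.40 and 1.35 TPM, and Hkdc1 was listed at 0. The next enzyme, glucose-6-phosphate isomerase (Gpi1), was high with 298, 361 and 360 TPM.

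Phosphofructokinase commits the sugar to glycolysis and is built from liver (Pfkl), muscle (Pfkm) and platelet (Pfkp) chains. Pfkp had 110.1, 140.6 and 150.4 TPM, Pfkl had 67.5, 93.3 and 74.8 TPM, and Pfkm had 6.23, 10.6 and 10.1 TPM. The platelet chain led in every library with 60.4% ± 3.23 (SD, n = 3) of the summed TPM, followed by the liver chain with 35.6% ± 3.33 and the muscle chain with 4.00% ± 0.528. Fructose 2,6-bisphosphate, the activator of this step, is made and removed by the Pfkfb enzymes. Their highest gene was Pfkfb3 at 8.46, 17.9 and 21.5 TPM, and Pfkfb1, Pfkfb2 and Pfkfb4 lay at 6.34 ± 1.63, 3.69 ± 1.63 and 7.04 ± 2.81 TPM. Fbp1 and Fbp2, which reverse the step in gluconeogenesis, had at most 0.12 TPM, and Pck1 and G6pc at most 0.14. Their relatives Pck2 and G6pc3 were detected at 38.6 ± 6.08 and 34.9 ± 6.73 TPM.

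Aldolase splits the 6-carbon sugar, and nearly all of its message came from Aldoa, the muscle and general form. Aldoc, the brain form, had 9.81, 11.8 and 10.7 TPM, which left Aldoa with 98.8% ± 0.138 (SD, n = 3). The 3-carbon steps that follow each had 1 gene among the 42, and their levels were uneven. Triosephosphate isomerase (Tpi1) stood at 79.9, 71.1 and 67.9 TPM, and Gapdh, which makes the first NADH, at 319, 303 and 279.7 TPM. Phosphoglycerate kinase (Pgk1), the first step that yields ATP, had 151, 144.5 and 137 TPM. Phosphoglycerate mutase (Pgam1) had 37.3, 34.2 and 34.1 TPM and was the lowest enzyme step from aldolase to lactate. The next enzymes, enolase and pyruvate kinase, had the 2 highest means of single genes, and their ranges lay far above that of Pgam1. Eno3, the muscle enolase, was detected at 26.6 ± 2.08 TPM and the neuronal Eno2 at 6.52 ± 2.50, far below Eno1. Pklr, the liver and red cell pyruvate kinase, had at most 0.12 TPM.

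Lactate dehydrogenase turns pyruvate into lactate and back. Ldha had 774, 756 and 793 TPM and Ldhb had 98.3, 107 and 89.8 TPM. The A chain took 88.7%, 87.6% and 89.8% of the pair, with ranges far apart. The transporters that move lactate across the membrane were low by comparison. Slc16a1 (MCT1) had 3.15, 4.76 and 3.67 TPM and Slc16a3 (MCT4) 3.06, 2.74 and 2.45 TPM, from 36 to 139 counts a library. Slc16a1 was higher in every library, with a share of 58.1% ± 6.58 (SD, n = 3), but posterior mean TPM (another estimate in the same table) gave it 41.95% and the counts for the older M4 annotation, taken per length, 43.9%, so which of them is higher depends on the estimate. Their chaperone at the membrane, Bsg, stood at 99.8 ± 5.35 TPM, and Slc16a7 and Slc16a8 had at most 0.27 TPM.

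Pyruvate enters the mitochondrion through the carrier Mpc1 and Mpc2, at 156 ± 24.6 and 41.8 ± 4.35 TPM, and is oxidised by the pyruvate dehydrogenase complex. The genes of its E1 chains were close to each other: Pdha1 had 132, 156 and 167 TPM and Pdhb 121.5, 129 and 119 TPM. The gene of its E2 core, Dlat, had 9.84, 10.7 and 14.7 TPM, 4.09% ± 0.692 (SD, n = 3) of the 3 genes' sum. Pdha1 was 11.4 to 14.5 times as high as Dlat over the 3 libraries. The E3 gene Dld and the E3-binding gene Pdhx were at 71.2 ± 3.66 and 15.4 ± 3.16 TPM. Among the kinases that switch the complex off, Pdk1 had 10.1, 32.9 and 32.9 TPM, 2.05-fold apart by scaled counts with library 1 the lowest (adjusted p = 1.73e-27, chi-square test between libraries). Pdk2 and Pdk3 stood at 10.3 ± 2.02 and 12.9 ± 0.542 TPM, and Pdk4 was listed at 0.

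**Figure D2:**
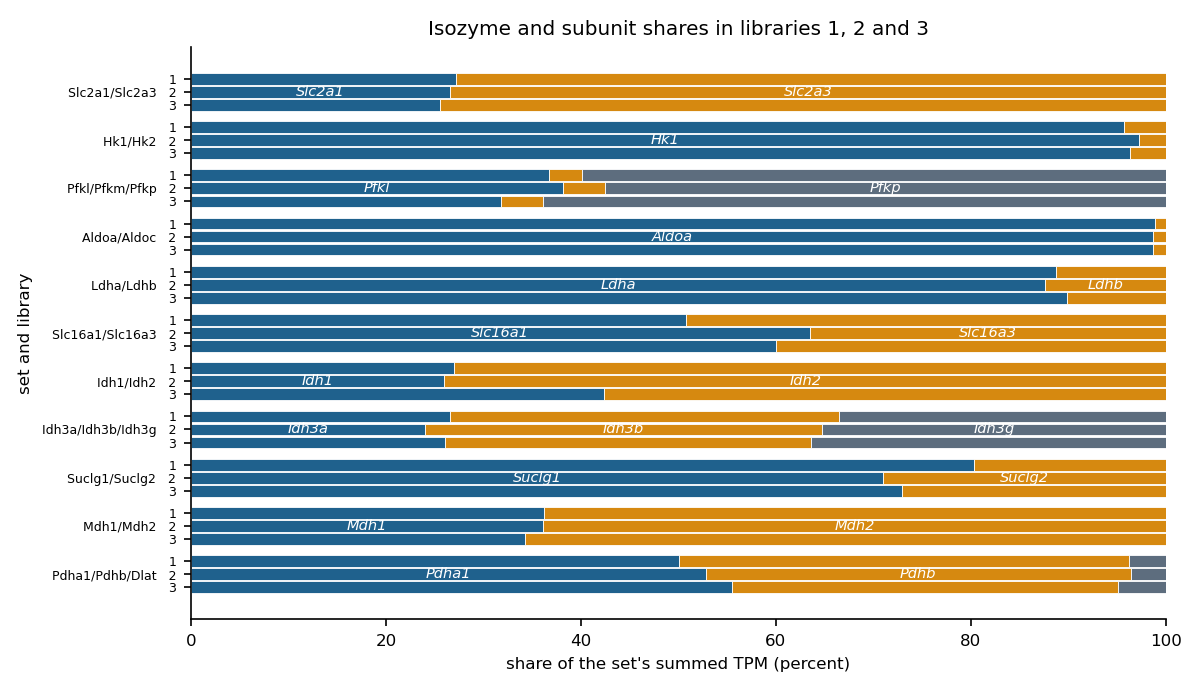
Share of each gene in the summed TPM of its isozyme or subunit set (percent), a bar for each library 1, 2 and 3; colours separate the genes of a set in the order of its name. Hk1, Aldoa and Ldha fill 96.4%, 98.8% and 88.7% of their sets on average, and the Idh1/Idh2 bars shift in library 3.

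In the TCA cycle, citrate synthase (Cs), the entry enzyme, had 115, 144 and 153 TPM. Isocitrate is then oxidised by an NAD-dependent mitochondrial enzyme of 3 chains. Idh3b, Idh3g and Idh3a had means of 154 ± 7.95, 137 ± 3.14 and 100.1 ± 6.79 TPM, shares of 39.4%, 35.1% and 25.5%. The alpha chain is the catalytic one and the others are regulatory, and the gene of the alpha chain was lowest in every library. The NADP-dependent forms, which make NADPH, were far lower: Idh2 in the mitochondrion had 20.3, 17.7 and 17.4 TPM and Idh1 in the cytosol had 7.51, 6.22 and 12.8 TPM. The sum of the 3 NAD-dependent genes was 392.0 ± 8.11 TPM and that of the NADP-dependent pair 27.3 ± 3.15 TPM. Idh2 held 73.0%, 74.0% and 57.6% of the NADP pair, so library 3 stood apart.

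The aconitase among the 42 genes, Aco1, is the cytosolic form that doubles as the iron sensor IRP1, and it had 14.7, 23.7 and 22.8 TPM. The 2-oxoglutarate dehydrogenase complex had more E1 (Ogdh) than E2 (Dlst) message, as the pyruvate complex did. Ogdh had 121, 187 and 187 TPM against 45.2, 58.2 and 60.3 TPM for Dlst, a ratio of 3.00 ± 0.283 (SD, n = 3). Succinyl-CoA ligase joins the alpha chain Suclg1 with a beta chain for GTP (Suclg2) or ATP (Sucla2). Suclg1 had 110.0, 97.1 and 99.5 TPM, Suclg2 had 27.0, 39.7 and 36.9, and Sucla2 had 63.2, 59.8 and 60.3. Sucla2 was higher than Suclg2 in every library, and the sum of Suclg1 and Suclg2 hardly moved, at 137 ± 0.358 TPM.

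Of the last steps of the cycle, the 4 succinate dehydrogenase genes Sdha, Sdhb, Sdhc and Sdhd stood at 299.8 ± 26.4, 237 ± 14.7, 103 ± 3.90 and 142 ± 4.65 TPM. Fumarase (Fh1), between succinate and malate dehydrogenase, was lower than all of their genes with 38.7, 44.1 and 38.9 TPM. Malate dehydrogenase was the highest TCA step among the 42 genes. Mdh2 in the mitochondrion had 601, 594 and 582.5 TPM and Mdh1 in the cytosol, its partner in the malate-aspartate shuttle, had 341, 336 and 304 TPM. Mdh2 was 1.82 ± 0.0865 (SD, n = 3) times as high as Mdh1, a share of 64.5% ± 1.07 of the pair. With protein-coding transcripts alone the Mdh2 share was 56.9% ± 1.41. Me2, the mitochondrial malic enzyme that makes pyruvate from malate, had 44.5, 47.3 and 52.1 TPM, while Me1 and Me3 had at most 0.04 TPM. The citrate-cleaving enzyme Acly stood at 64.5, 120.6 and 114 TPM.

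In the pentose phosphate pathway G6pdx and Pgd were lower than Tkt and Taldo1 when all transcripts were counted. G6pdx, which commits glucose 6-phosphate to the pathway and makes NADPH, had 26.0, 32.7 and 29.9 TPM, and Pgd, the second NADPH step, had 60.6, 68.2 and 68.7 TPM. Their sum was 95.4 ± 7.68 TPM, against 552 ± 25.6 TPM for transketolase (Tkt) and transaldolase (Taldo1), which shuffle sugars reversibly. Of the other reversible enzymes, Rpe had 40.8 ± 2.73 TPM and Rpia 4.87 ± 1.46, both below Pgd. Tkt had 234, 276 and 299 TPM and Taldo1 299, 266 and 282 TPM. Taldo1 was 1.28 times as high as Tkt in library 1 and 0.966 and 0.944 times in the others, so their order over all transcripts was not the same in all libraries. With protein-coding transcripts alone Taldo1 took 90.7%, 92.5% and 91.9% of the pair, and Tkt at 24.7 ± 3.55 TPM was below Pgd at 62.4 ± 3.95 and near G6pdx at 24.1 ± 0.887. The lactonase between the oxidative steps, Pgls, had 5.95, 40.7 and 40.7 TPM, 4.91-fold apart by scaled counts with library 1 the lowest (adjusted p = 3.34e-24, chi-square test between libraries).

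Of 77 other genes of these pathways on lists of isozymes, controls and regulators, 46 were detected. In the list of other glycolysis isozymes 4 of 15 were detected, in that of other TCA enzymes 8 of 12 and in that of other pentose phosphate enzymes 7 of 8. Thus the isozymes outside the 42 were mostly below detection in glycolysis, while the TCA list added genes at the level of the 42. Of the transcription factors known to drive glycolytic genes, Myc had 115, 147 and 163 TPM and Hif1a 28.8, 56.7 and 39.2 TPM, and Mycn was listed at 0.

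The next question was how far the 42 genes differed between the 3 libraries. Counts of each gene were compared with library totals scaled by TMM (a factor that lets most genes have equal levels) by a chi-square test, for the 13071 genes that had at least 30 counts in sum, with adjustment over all of them. All 42 genes had enough counts, and 31 passed an adjusted p of 0.05, where 54.5% of all genes tested passed. By scaled counts, 22 of these 31 genes were highest in library 1 and 7 lowest in it. Over all genes tested, 24.2% passed and were highest in library 1 and 23.9% passed and were lowest in it. On the log2 scale the median of library 1 over the others was 0.17 for the 42 genes and -0.01 for all genes tested. TPM did not always give the same order. Pkm was highest in library 1 by scaled counts (15390, 14191 and 13525) but lowest there in TPM, whereas Aldoa was highest there by both. The summed TPM of the 42 genes was 7470, 8005 and 7814, lowest in library 1, while their share of counts was highest in it. The differences in scaled counts were small. The median ratio of the highest to the lowest library was 1.27 for the 42 genes and 1.37 for all genes tested. It was 1.32 for detected protein-coding genes, of which 6011 of 10120 passed. Neither background was matched in counts to the 42 genes, most of which were high. A single gene, Idh1, passed with a ratio of 2 or more, where 8.66% of all genes tested did. The 11 genes that did not pass were Hk2, Pfkl, Pfkp, Aldoc, Slc16a1, Slc16a3, Dlat, Dlst, G6pdx, Pgd and Tkt, which does not show that they were equal.

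Idh1 (ENSMUSG00000025950.16, chromosome 1, 65158616 to 65186500) had 124, 91 and 169 counts, a ratio of 2.08 between libraries 3 and 2 (adjusted p = 2.34e-07, chi-square test with Benjamini-Hochberg adjustment). Library 3 was high and library 2 low, and the ratio was 1.49 without library 3 and 1.42 without library 2. The ratio was 1.995 in the M4 counts, and with the chi-square values divided by their median over all genes the adjusted p was 0.0974. The summed level of 6 macrophage and monocyte markers, 4 of them detected, stood in the same order of libraries with 24.97, 18.4 and 39.6 TPM. Lyz2, Cd68 and Itgam had that order, while Csf1r, Adgre1 and Fcgr1 were lowest in library 1, Fcgr1 at 0. The sum of 6 CD8 T and NK cell markers, 5 of them detected, also had it with 135.5, 120.3 and 153.4 TPM. The part of these cells in the Idh1 values was not tested. The next largest ratios were those of Slc16a3 at 1.51 (adjusted p = 0.144 by the same chi-square test), Mdh1 at 1.49, Tpi1 at 1.48 and Suclg1 at 1.42. All 4 were highest in library 1 by scaled counts.

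Genes high in library 1 by scaled counts were more often short than long. Scaled counts of library 1 over the mean of the others had a log2 median of 0.36 in the 21 shorter genes (1196 to 2049 bases) and -0.01 in the 21 longer ones (2207 to 4426 bases). Among the shorter genes 19 of 21 were highest in library 1 and none was lowest in it. Among the longer genes 6 were highest and 7 lowest. At the ends, Tpi1 and Mdh1 lay at 0.53 and 0.52 on the log2 scale, and Slc2a3 and Ogdh at -0.43 and -0.42. Slc16a3, of 2512 bases and few counts, lay among the short genes at 0.53. Across the 42 genes, which are not independent replicates and share the 3 libraries, Spearman's rho of this difference with length was -0.767, and it was -0.672 over 7870 protein-coding genes. With totals scaled within 20 bins of gene length, 25 of the 42 genes passed in place of 31 (22 of them in both). Over all genes tested 44.5% passed in place of 54.5%, and Tpi1 and Mdh1 had ratios of 1.25 and 1.26. Under that scaling 22 genes passed and were highest in library 1, as many as before, while 2 in place of 7 passed and were lowest in it. The median log2 value of the 42 genes was then 0.11, so the difference of library 1 was smaller but remained in that direction. Without library 1, 10 of the 42 genes passed, where 17.2% of all genes tested did. The ratios of Tpi1 and Suclg1 were then 1.045 and 1.049 (adjusted p = 0.654 and 0.535 by the same chi-square test).

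**Figure D3:**
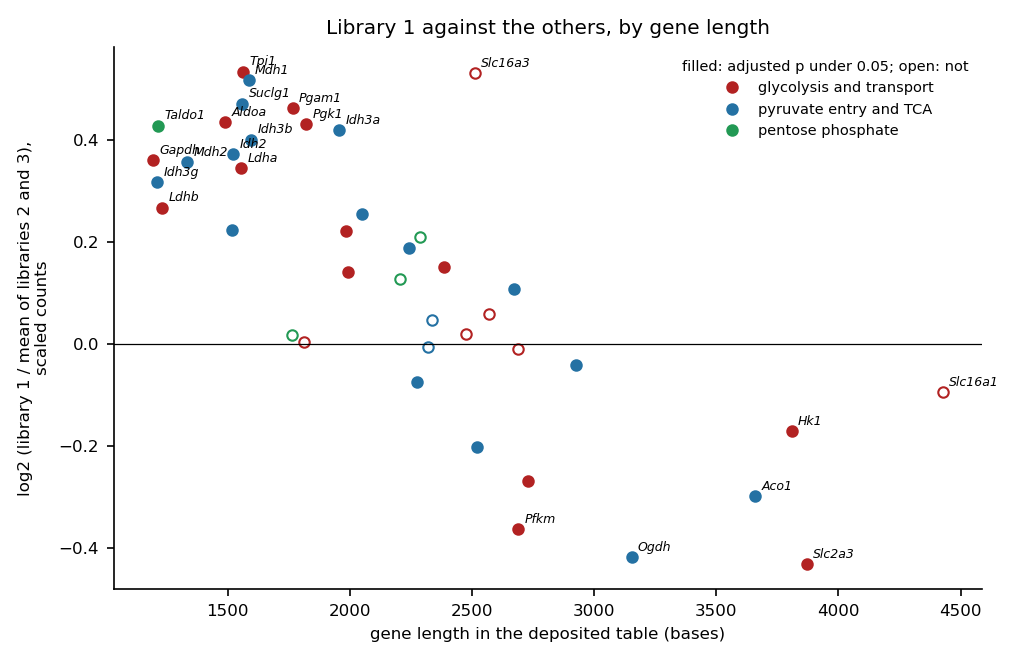
Log2 ratio of scaled counts in library 1 to the mean of libraries 2 and 3 (vertical axis) against gene length in bases (horizontal axis) for the 42 genes, coloured by pathway; filled points passed the chi-square test between libraries and open points did not. The points fall with length, from Tpi1 at 0.53 to Slc2a3 at -0.43, with Slc16a3 above the trend, in glycolysis and TCA genes alike.

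The transcript tables show which messages make up these levels. The leading transcript took over 90% of its gene's TPM in 14 of the 42 genes, and its median share was 77.6%. It was an annotated protein-coding transcript in 38 genes and of another class in 4: Slc2a1, Hk2, Idh3a and Tkt. In the second transcript table it was of another class in 2 genes, Slc2a1 and Tkt. For Tkt the leading transcript, Tkt-209, is annotated as a processed transcript, one with no coding sequence. It took 66.8%, 74.2% and 67.9% of Tkt TPM, from 2252 to 2509 counts a library. Protein-coding transcripts of Tkt took 12.2%, 7.74% and 8.17%, and in the second transcript table they took 12.9% on average. Counting protein-coding transcripts alone, Tkt stood at rank 31 of the 42 genes in place of rank 10, while Taldo1 kept 272 ± 7.10 TPM.

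Slc2a1 and Idh3a also had much of their TPM outside coding transcripts. The coding Slc2a1-201 took 55.9%, 48.8% and 43.4% and Slc2a1-204, of the nonsense-mediated decay class (transcripts with an early stop, marked for degradation), 44.1%, 49.4% and 55.7%. Their ranges overlap over the libraries, so which of them leads is not resolved in the main table. In the second transcript table Slc2a1-204 led in every library, with 53.4%, 56.4% and 60.4% against 46.6%, 40.8% and 37.0%. With coding transcripts alone the Slc2a3 share of the glucose transporter pair was 83.5% ± 2.16 (SD, n = 3). For Idh3a the leading transcript, Idh3a-203, retains an intron and took 46.3%, 45.8% and 48.9%, ahead of the coding Idh3a-205 with 27.3%, 32.2% and 34.4%. The second transcript table put 0 on Idh3a-205 and 36.2% ± 3.61 on another coding transcript, Idh3a-201, which the main table lists at 0. The Idh3a share of the 3 NAD-dependent isocitrate dehydrogenase genes was 11.4% ± 1.47 with coding transcripts alone, below the 25.5% from all transcripts.

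For Hk2 the leading transcript was Hk2-202, a processed transcript with 66.2%, 51.7% and 67.3% of TPM. It rests on 3 to 6 counts a library, against 37 to 42 counts for the coding Hk2-201, which is longer. Dlat and Ogdh led with coding transcripts that took 49.5% ± 3.69 and 45.7% ± 2.10 (SD, n = 3), and the other Dlat transcripts rest on 19 counts or fewer each. In Ogdh a coding transcript of nearly the same length, Ogdh-202, took 23.9% ± 4.03 and a transcript with a retained intron, Ogdh-205, took 27.2% ± 4.94. Pfkp-201 took 41.2% ± 1.26 and Pfkp-207, which has the same coding length of 2352 bases, took 26.5% ± 3.03. In Gpi1 and Mdh2, transcripts of the nonsense-mediated decay class took 40.1% ± 2.89 and 28.4% ± 0.806. The second transcript table gave means of 42.4% for Gpi1 and 15.8% for Mdh2, so the Mdh2 share depends on the table.

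**Figure D4:**
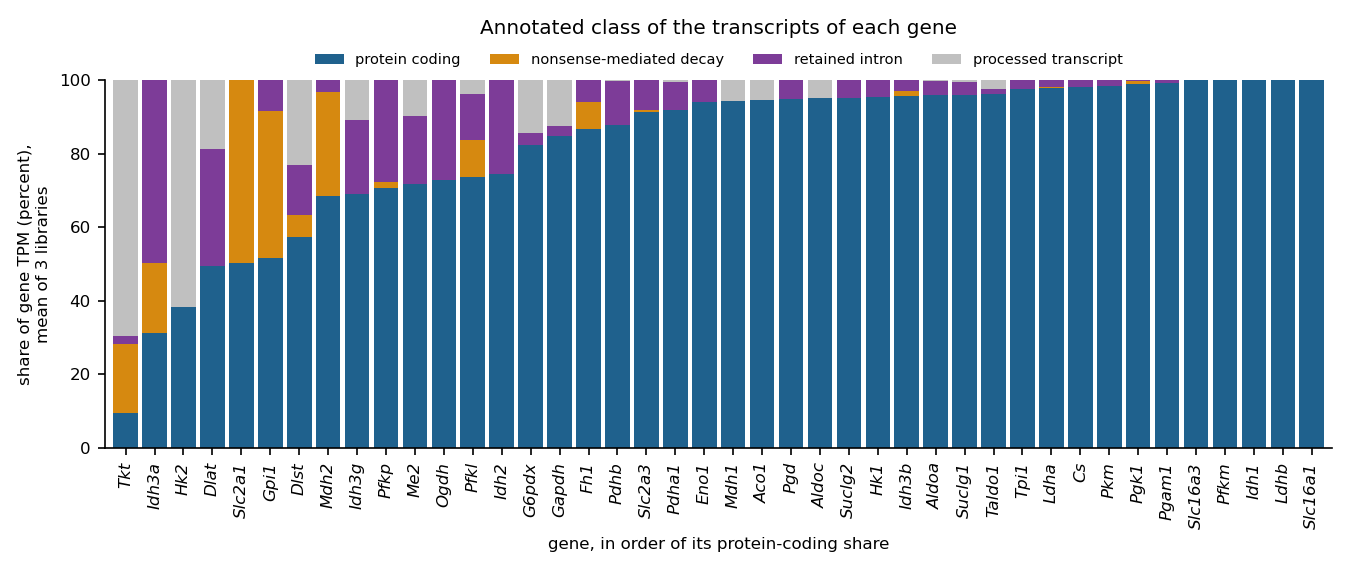
Share of each gene's TPM by annotated transcript class (percent, mean of 3 libraries), the 42 genes in order of their protein-coding share. Protein-coding transcripts exceed 90% in 24 genes and lie below 50% in 4, with Tkt lowest.

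In 4 genes the leading transcript was not the same in all libraries: Slc2a1, Pfkm, Gapdh and Idh1. Gapdh-202 took 68.3% and 68.2% of Gapdh TPM in libraries 1 and 3 but 1.10% in library 2, where Gapdh-201 took 77.3%. In the second transcript table Gapdh-202 took 85.5%, 87.9% and 83.4%, with no such swap. Idh1-201 took 0%, 100% and 100%, with Idh1-203 at 96.4% in library 1, and these transcripts have the same coding sequence of 1242 bases. Pfkm-205, Pfkm-201 and Pfkm-202 led in libraries 1, 2 and 3, and the 3 share a coding sequence of 2340 bases that took 95.7%, 100% and 84.7% in all. The swaps in Idh1 and Pfkm thus did not change the encoded protein. Hk1-202 led in every library with 87.3%, 63.1% and 67.0%, whereas Hk1-201 took 0%, 24.5% and 19.3%, and the second transcript table put Hk1-201 first with 51.9% ± 4.39 (SD, n = 3). The main and second tables had the same leading transcript in 38 of the 42 genes, and the others were Hk1, Hk2, Idh3a and Mdh1.

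Glycolytic genes are known for their many processed pseudogenes, copies of the spliced message placed elsewhere in the genome, which can take or share reads. Coding sequences of the 42 genes were searched against all other M21 genes for copies with 90% or more identity over 50% or more of their length. Gapdh had 160 such copies, 156 of them annotated as pseudogenes, Ldha had 11, Aldoa and Eno1 had 6 each and Pkm had 5. In the main table the copies of Gapdh held 16.3%, 18.7% and 20.3% of the counts of Gapdh and its copies together. For Pgk1 the copy Gm5537, identical over the whole coding sequence, had 20.2, 20.5 and 35.3 TPM, and copies held 10.8% ± 3.57 (SD, n = 3) of counts. Copies of Eno1 and Suclg2 held 5.85% ± 1.05 and 5.45% ± 1.77, and those of the other genes under 3% on average. For Pgam1 that average hides 3.92%, 4.76% and 0% in libraries 1, 2 and 3. Counts of genes with such copies are uncertain, and these shares do not bound by how much.

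The Gapdh level depended on the table more than that of any other of the 42 genes in the second transcript table. Gapdh had 2514, 2208 and 1781 expected counts in the main table and 7136, 5525 and 4896 estimated counts in the second transcript table. Its copies had 490, 508 and 455 counts in the main table and 3549, 3332 and 2584 in the second. Relative to the totals and centred on the median gene, Gapdh was 1.08 ± 0.0864 (SD, n = 3) higher on the log2 scale in the second table, and the other 41 genes lay between -0.20 and 0.16. Against the M4 gene counts, Pgam1 and Pgk1 lay at -2.51 ± 0.195 and -1.11 ± 0.0587, below the main table by more than 2-fold in all 3 libraries. Those were 2 of the 42 genes, where 14.1% of the 10534 genes compared lay as low, and none of the 42 was over 2-fold higher, where 1.22% were. Pgam1 has a copy identical over its coding sequence, Pgam1-ps2. Its M4 counts were 116, 71 and 65, against 482, 376 and 334 in the main table and 595, 440 and 411 in the second. The part of the copies in these differences was not tested.

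**Figure D5:**
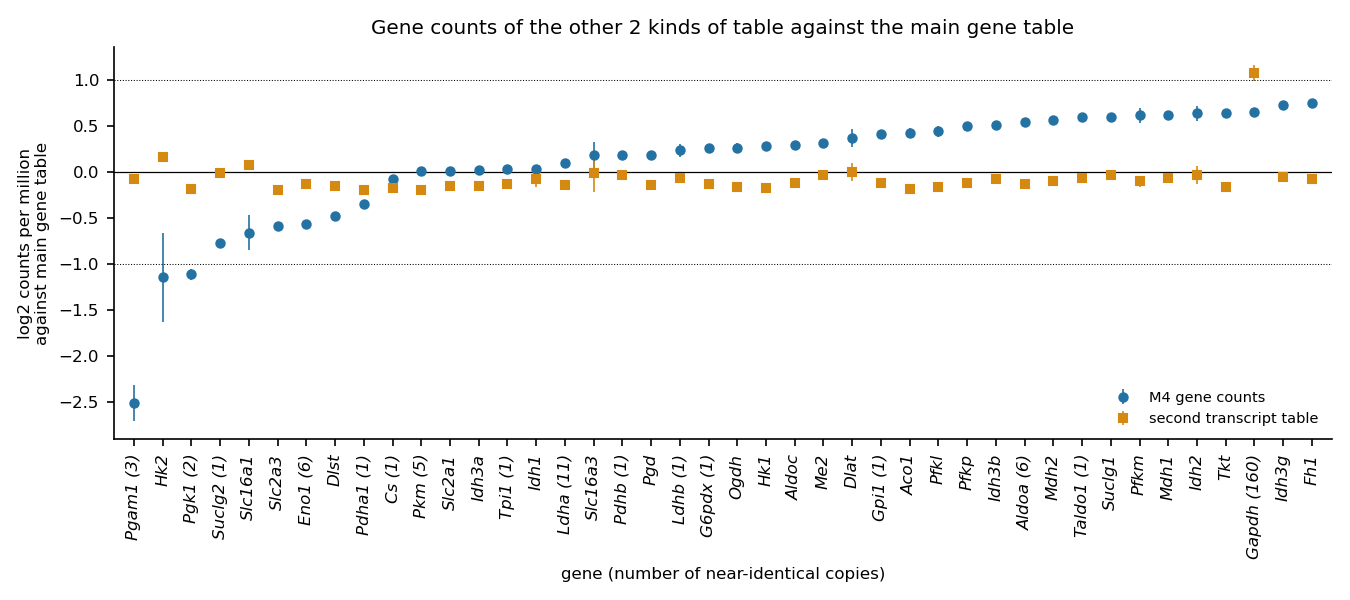
Log2 ratio of each gene's share of all counts in the M4 gene counts (circles) and the second transcript table (squares) to the main gene table, centred on the median of all genes, mean and SD (bars) of 3 libraries; the number of near-identical copies stands in brackets and dotted lines mark 2-fold. Pgam1 lies lowest at -2.51 in the M4 counts, and Gapdh is the square that stands apart, at 1.08.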

How the data were processed

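Polyadenylated RNA of mouse regulatory T cells was measured in 3 libraries. Per the deposited readme of each library, the authors made the gene and transcript tables from an alignment to mm10 with the GENCODE M21 annotation, a second transcript table from an index of the same annotation, and gene counts for the M4 annotation. The main gene table holds the deposited expected counts and TPM, the transcript table adds each transcript's percent of its gene's TPM, per the file headers, and the second transcript table holds the deposited estimated counts and TPM. The M4 table holds deposited whole-number counts, a unit read from its values. Column names are those that RSEM and kallisto write. Aligner, counter, versions and strand use are not named in the labels or headers. TPM is scaled within each library to all transcripts, so a level moves with the rest of the library.

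Entries for tRNA, ERCC spike-ins and phiX (0.117%, 0.124% and 0.135% of counts) were left out of totals and tests. Detection was set at 1 TPM in every library. Expected counts were rounded, and each gene with 30 or more counts was tested by a chi-square test of homogeneity against TMM-scaled totals (edgeR 4.0.16, R 4.3.3), with Benjamini-Hochberg adjustment over all genes and a threshold of 0.05. It sets the libraries against counting error only, which is a lower bound, since PCR copies of a molecule are counted as separate reads. On simulated libraries with counting noise it called 4 of 12886 unchanged genes, 73 of 100 changed 1.5-fold and 90 of 100 changed 2-fold, a check of the arithmetic under pure counting noise. Ratios between libraries use scaled counts with 0.5 added. Copies were searched with BLAST 2.17.0. DESeq2 1.42.0 gave alternative size factors. Shares and plots used Python 3.11.15, numpy 2.4.6, scipy 1.17.1, pandas 2.3.3 and matplotlib 3.10.9.

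Given in full are all isozyme and subunit sets, the 3 highest and 3 lowest genes, genes 2-fold or more apart between libraries and the 5 largest ratios, and for transcripts Pkm and genes whose leading transcript changed, was not protein-coding or took under 50%. Gpi1, Mdh2, Hk1, Pdk1 and Pgls were singled out after their values were seen. The 42 genes and the other gene lists were chosen with earlier results of these data known.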

Additional observations from a re-analysis of the deposited data

How the results depend on the processing

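All 42 genes were detected at 0.5 TPM and without each library in turn, 39 at 5 TPM, and 41 with the second transcript table (42 without transcripts under 200 bases). The number of genes that differed between libraries was 31 and ranged from 10 to 31 when a library was left out, lowest without library 1. Of all genes tested 17.2% passed without library 1, 49.3% without library 2 and 46.5% without library 3. With chi-square values divided by their median per degree of freedom, 15 of the 42 genes passed (16.9% of all genes). Of these 15, 13 were highest and 2 lowest in library 1. With scaling in length bins 2 genes passed and were lowest in library 1. The number that passed and were 2-fold apart was 1. It was 0 with the divided chi-square values (2.13% of all genes) and with M4 counts (10.5%). When a library was left out it was from 0 to 1 (2.38% to 5.28% of all genes). No other setting moved these counts by over 1.5 times.

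The second transcript table gave shares of 24.75% for Slc2a1, 31.1% for Pfkl, 65.2% for Pfkp, 57.5% for Mdh2 and 92.85% for the M2 exon of Pkm. M4 counts per effective length gave 98.6% for Hk1, 35.2% for Slc2a1, 98.95% for Aldoa, 43.9% for Slc16a1 and 88.3% for Suclg1. Posterior mean TPM gave 98.5% for Aldoa and 41.95% for Slc16a1. The M2 share was 95.6% with protein-coding transcripts alone and 96.2% by expected counts, the latter chosen after the data were seen, as were the settings of counts highest or lowest in library 1 and the second table without transcripts under 200 bases. The median share of leading transcripts ranged from 77.3% to 80.6% when a library was left out. The causes were not tested. No paired analysis was possible because there is 1 group. Depth limits the genes with few counts: Hk2, Slc16a1, Slc16a3 and Idh1 had 36 to 169 counts a library.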

Other observations

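Promoter windows from RefSeq (GRCm38.p6, 250 bases before to 50 after the start) were found for 39 of the 42 genes. The core bound by the hypoxia-inducible factors is ACGTG or GCGTG, and either stood in 31 of 39 windows, 79.5%, against 68.8% of 8061 detected protein-coding genes. GCGTG stood in 25 of 39, 64.1% against 57.2%, and in 12 of 19 glycolysis and transport genes. ACGTG stood on either strand in 18 of 39 windows, 46.2%, against 30.2% of detected protein-coding genes and 21.8% of all 27025 genes with a window. By pathway ACGTG stood in 13 of 19 glycolysis and transport genes, 4 of 16 genes of pyruvate entry and the TCA cycle and 1 of 4 pentose phosphate genes. The E-box CACGTG, which contains ACGTG and is a Myc and Max site, stood in 4 of 39, those of Pfkm, Ldha, Slc16a1 and Ogdh, 10.3% against 12.2% of detected genes. These are letters in a window, not measured binding.

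Aligned identity between coding sequences of isozymes, over 10 pairs, ran from 55.9% for Mdh1 with Mdh2 to 75.9% for Aldoa with Aldoc, and it was 71.7% for Ldha with Ldhb and 71.6% for Hk1 with Hk2.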
